A study of Mus musculus with 4 samples.

Results

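Hyaluronan is a long, unbranched sugar polymer that fills the space between connective tissue cells and, in joints, lubricates the synovial fluid. The 10 genes described here make, cut or bind it, and they were taken by symbol from a list of hyaluronan synthases, hyaluronidases and binding proteins. All 10 were found among the 16416 genes of the expression table. RNA sequencing was done on mouse synovial fibroblasts that grew out of shoulder joint capsules collected 1 week after the joint was immobilized and that were used at passage 2. The study searched for the mechanism and targets of the microRNA miR-26a in this model of frozen shoulder.

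There were 4 libraries, 1 per group. The wild-type library came from cells of C57BL6/J mice and the knockout library from cells of miR-26a -/- mice, both untransfected. The other two came from miR-26a -/- cells transfected at 10 nM for 24 h, one with Silencer Negative Control siRNA and one with a double-stranded miR-26a mimic, so both differ from the wild type in genotype as well as in the oligonucleotide. How many animals stand behind each library is not given in the sources used here. Since each group is a single library, nothing below has been checked against replicates, no p-value is given, and every direction is one between libraries.

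Hyaluronan synthases sit in the plasma membrane, join 2 activated sugars, UDP-glucuronic acid and UDP-N-acetylglucosamine, and push the growing chain out of the cell. Outside, the chain is held by surface receptors such as Cd44 and by matrix proteins such as versican, and it can be crosslinked by heavy chains that Tnfaip6 transfers to it. Chains are cut at the cell surface and in lysosomes, and synovial fibroblasts are a main source of the hyaluronan of joint fluid.

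The mimic's guide strand, as the labels give it, was the same as mature mmu-miR-26a-5p in RefSeq (GRCm38.p6), which is encoded on chromosomes 9 and 10. It is shown because its seed, bases 2 to 8 in capitals, is the stretch that pairs first with a target. Levels of miR-26a itself were not analysed here.
miR-26a-5p: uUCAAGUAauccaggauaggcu
The complement of the seed, TACTTGA, was looked for in the 3' untranslated regions (3' UTRs) annotated for the members. It occurred in 2 of the 10, Has3 and Cemip2, each time followed by A, which makes the 8-base site TACTTGAA. Among 12330 genes that were measured with the mimic or the negative control and had a 3' UTR, 12.3% held the 7-base and 5.33% the 8-base site, and of the 9 measured members 1 held either. The 2 sites are shown with 10 bases before and 9 after in lower case and the site in capitals, both on the plus strand. The 7-base part lies at chr8:106880860-106880866 for Has3 and at chr19:21856710-21856716 for Cemip2 (GRCm38).
Has3 site: cttcagctttTACTTGAAggttacagg
Cemip2 site: gcatttcagaTACTTGAAgtccaatgc
The other 8 members, Has2, Cemip, Cd44, Vcan and Tnfaip6 among them, held no match in 3' UTRs whose longest annotated forms have 301 to 2992 bases, which says only that these letters are not in those annotated windows.

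Levels are given in TPM, a transcript abundance whose sum is the same in every library and which corrects for transcript length and allows genes to be compared. A log2 ratio was computed from estimated read counts scaled by library, and the bounds in parentheses after it are its exact 95% binomial interval, a measure of counting error alone. Genes reaching 1 CPM (a count scaled to library size) in either library of a pair are termed measured, and a measured gene was called higher or lower where the ratio reached 2-fold and its bounds lay on one side of 0. Libraries held between 17598763 and 19392655 counts, and between 15150 and 15370 genes had a count above 0. Of the members, 9 were measured in each comparison and Has3 in none.

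The libraries differed in the marker genes of several cell types. The 10 fibroblast markers summed to 17028 TPM in the wild type and to between 7174 and 7878 TPM in the 3 knockout libraries, and all 10 had a knockout to wild-type ratio below 0, with a median log2 ratio of -1.09. The 13 macrophage markers summed to 21170 TPM in the wild type and to between 29674 and 30796 TPM in the others, all 13 above 0, with a median of 1.10. Macrophage transcripts were thus abundant in cells labelled as fibroblasts, and none of the fibroblast or macrophage markers was at 0. All 15 mitosis genes were called higher in the knockout, where 5.90% of all measured genes were, with a median of 1.41. Beside these lists, the knockout to wild-type log2 ratios were -0.39 for Vcan, -0.64 for Cemip2, -1.89 for Tnfaip6, 0.81 for Cemip and 0.27 for Cd44. In such bulk RNA fewer cells of a type and less RNA per cell cannot be told apart, and the part of cell makeup in these differences was not tested. Between mimic and negative control the fibroblast median was 0.08 and the macrophage median -0.05, with 0 genes of either list called, and these stood beside Cemip's ratio of 1.40. Markers of other kinds did differ there. All 15 mitosis genes were below 0, with a median of -0.27 and 0 called, and of 5 measured cartilage and tendon markers all were above 0 and 3, Col2a1, Tnmd and Scx, were called higher, where 0.855% of all measured genes were, with a median of 1.04. Tnfaip6, at 1.16, stood beside the latter, and their part in its ratio was not tested. Between knockout and wild type 4 of 6 cartilage and tendon markers were called lower and 1, Col2a1, higher, at 3.12 (2.55 to 3.86). There 4 of 4 adipocyte markers were called lower, where 7.00% of all measured genes were called lower and 5.90% higher. Summed levels were 48.0 to 103 TPM for Schwann cell, 94.8 to 148 TPM for synovial lining, 4.62 to 13 TPM for muscle and 3.63 to 4.49 TPM for endothelial markers.

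**Figure D1:**
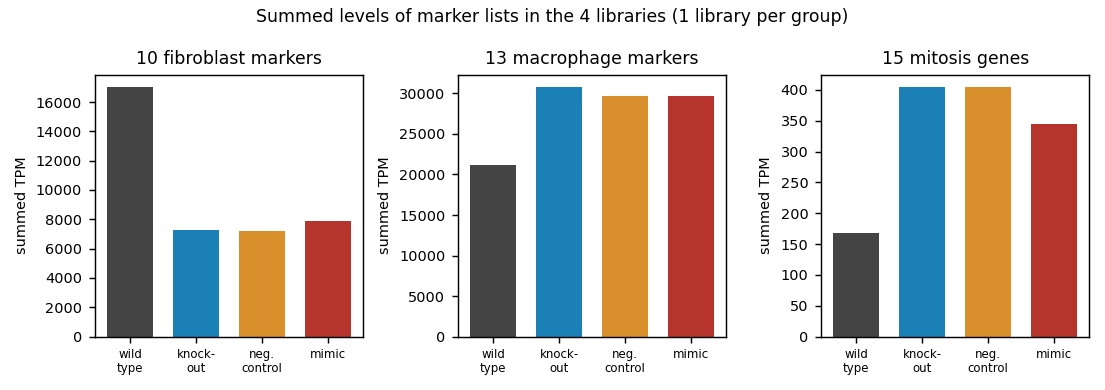
Summed TPM of 10 fibroblast markers, 13 macrophage markers and 15 mitosis genes in the 4 libraries, 1 bar per library. The wild type had the highest fibroblast sum, 17028 TPM, and the lowest macrophage sum, 21170 TPM, while the 3 knockout libraries were alike in both. Abundant genes weigh most in these sums. Lyz2 took 58.2% to 70.4% of the macrophage sum and Col1a1 34.2% to 41.0% of the fibroblast sum.

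The members are read here against all measured genes, comparison by comparison. Between knockout and wild type 1 of the 9 measured members, Tnfaip6, was called lower, where 7.00% of 12803 genes were called lower, and 0 members were called higher, where 5.90% of genes were. The median log2 ratio of the members was -0.29, with 3 above and 6 below 0, and that of all measured genes 0.01. Between negative control and untransfected knockout 0 members were called in either direction, where 0.295% of 12532 genes were called higher and 0.718% lower. The median of the members was -0.13 and that of all genes 0.00. Between mimic and negative control 2 members, Cemip and Tnfaip6, were called higher, where 0.855% of 12512 genes were, and 0 lower, where 0.352% were. The median of the members was 0.07 and that of all genes -0.01. Between mimic and untransfected knockout 0 members were called, where 0.263% of 12536 genes (33) were called higher and 0.471% (59) lower, a split that was 37 and 43 on TPM with a pseudocount of 0.1, and the medians were 0.13 and 0.00. On deposited TPM with a pseudocount of 0.1 the median of all genes between knockout and wild type moved to -0.11. Has2, whose scaled counts gave 0.06, had a log2 ratio of -0.07 there. Cd44 stood at 0.14, Cemip at 0.68 and Vcan at -0.49 on that scale, each outside its counting interval given below. Those intervals do not cover the choice of scale.

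**Figure D2:**
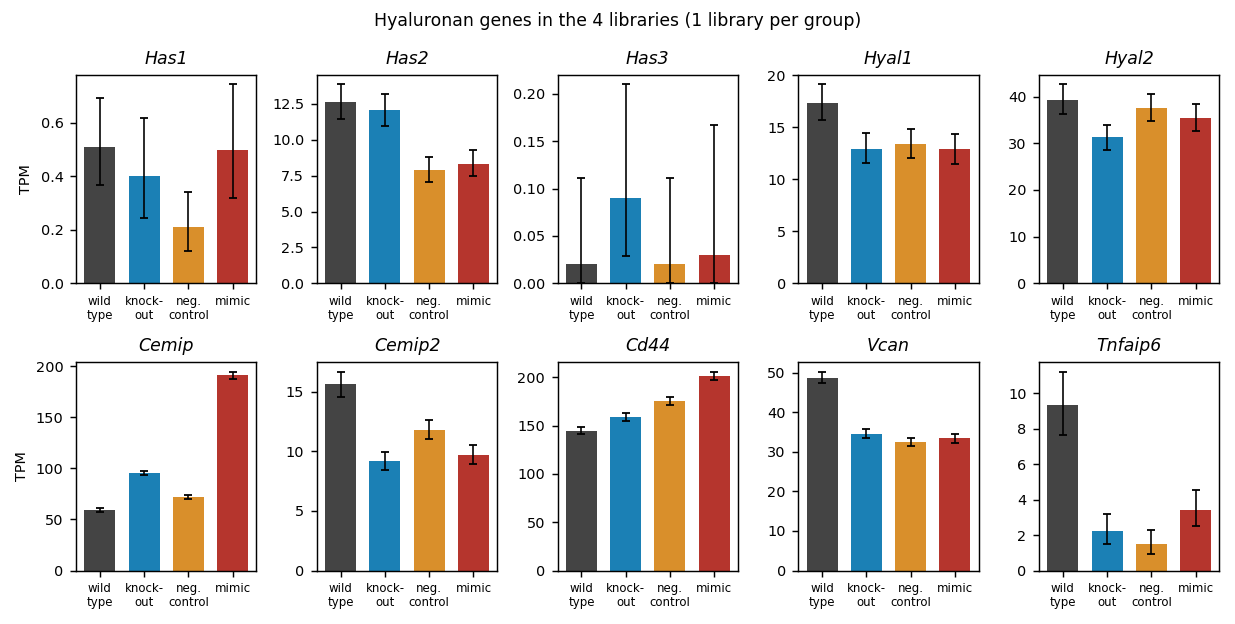
TPM of the 10 hyaluronan genes in the wild-type, knockout, negative-control and mimic libraries. Bars are single libraries and the lines on them are 95% Poisson counting intervals of the count, scaled to TPM. Cemip was highest with the mimic, at 191.29 TPM, and Tnfaip6 in the wild type, at 9.30 TPM.

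Among the synthases, nearly all transcripts were those of Has2. Positions are RefSeq's on GRCm38.p6, after the Entrez identifier. Has2 (15117, chr15:56665627-56694546), which makes large hyaluronan chains, was at 12.63 TPM in the wild-type library, 12.05 TPM in the knockout, 7.91 TPM in negative-control cells and 8.33 TPM in mimic cells. It took between 94.02% and 97.2% of the summed synthase TPM, so the pool of synthase transcripts was lower in both transfected libraries than in both untransfected ones. Set against the wild type, the knockout value of Has2 gave a log2 ratio of 0.06 (-0.13 to 0.25), an interval that takes in 0. The ratio was -0.64 (-0.85 to -0.44) between negative control and untransfected knockout and -0.58 (-0.79 to -0.37) between mimic and untransfected knockout, both short of 2-fold. In the comparison of negative control with untransfected knockout all 10 fibroblast markers were below 0, with a median of -0.12 and Lum called lower. All 4 measured cartilage and tendon markers were below 0 there, with a median of -0.67 and Scx called lower. The muscle marker Des was called lower, where 0.718% of all measured genes were. Between mimic and untransfected knockout 3 fibroblast markers were above and 7 below 0, with a median of -0.05 and 0 called. Of 5 measured cartilage and tendon markers 2 were above and 3 below 0, with a median of -0.02 and 0 called. The 2 measured muscle markers were below 0, with a median of -0.76 and 0 called. Of all measured genes 0.263% were called higher and 0.471% lower there. Of 4 measured synovial lining markers 1 was above and 3 below 0 between negative control and untransfected knockout, with a median of -0.14. Between mimic and untransfected knockout all 4 were above 0, with a median of 0.07. Of 13 macrophage markers 9 were above and 4 below 0 in the former comparison, with a median of 0.04. In the latter 7 were above and 6 below 0, with a median of 0.01. The part of these markers in the Has2 ratios was not tested. Between mimic and negative control Has2 had a ratio of 0.07 (-0.16 to 0.29), so the transfected libraries did not differ beyond counting error. Has2os, an antisense gene, overlaps Has2, and its reads cannot be told apart where counting ignores strand. Genes on the opposite strand also overlap Hyal1, Hyal2, Cemip2, Cd44 and Vcan, and the same limit applies to them.

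Has1 and Has3, the other synthases, had low counts, and those of Has3 lay near the floor of 3 counts. Has1 (15116, chr17:17833691-17855589) had 41, 20, 16 and 24 counts in the wild-type, knockout, negative-control and mimic libraries, at 0.51, 0.40, 0.21 and 0.50 TPM. Its knockout to wild-type log2 ratio was -0.99 (-1.87 to -0.22), just short of 2-fold, and the intervals of its other 3 ratios took in 0. That value rests on few counts and on the scale: it was -1.02 with a prior of 0.25 counts, past the limit, but -0.29 on TPM with a pseudocount of 0.1 and -0.11 with a pseudocount of 1. Has3 (15118, chr8:106870242-106882902), which carries the miR-26a site shown above, had 1, 5, 1 and 1 counts in the same order, too few for a comparison, and it overlaps Chtf8 on the opposite strand, whose 2174 to 2599 counts per library could add reads where counting ignores strand.

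Of the genes for breakdown, Cemip was the most abundant and the one that varied most. Cemip (80982, chr7:83932857-84086693), also known as HYBID, binds hyaluronan and is needed for its depolymerization by fibroblasts of skin and synovium. It stood at 59.36 TPM in the wild-type, 95.43 TPM in the knockout, 71.85 TPM in the negative-control and 191.29 TPM in the mimic library, from 3632, 6338, 5222 and 12919 counts. The mimic library was the highest and the wild type the lowest, and no counting intervals of the 4 levels overlapped. Cemip was 2.64-fold higher in the mimic than in the negative-control library, a log2 ratio of 1.40 (1.36 to 1.45), and at 0.96 (0.92 to 1.00) it lay just under the 2-fold limit against the untransfected knockout, a limit it passed on TPM with a pseudocount of 0.1. It was higher in the knockout than in the wild-type library, at 0.81 (0.75 to 0.87), and lower with the negative control than in untransfected knockout cells, at -0.44 (-0.50 to -0.39). The 3 comparisons among knockout cells share libraries, so the negative-control value enters both the ratio of 1.40 and that of -0.44. Cemip's share of the summed TPM of the 4 breakdown genes was 45.1% in the wild type, 64.2% in the knockout, 53.4% with the negative control and 76.7% with the mimic.

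Cemip2, a transmembrane relative of Cemip that is described in mice as a cell-surface hyaluronidase, did not follow it. Cemip2 (83921, chr19:21778340-21858360) was at 15.62, 9.16, 11.82 and 9.71 TPM in the wild-type, knockout, negative-control and mimic libraries, highest in the wild type. For knockout to wild type its log2 ratio was -0.64 (-0.80 to -0.49), and it was 0.34 (0.18 to 0.49) between negative control and untransfected knockout. Cemip2 carries the 8-base miR-26a site and had a mimic to negative-control ratio of -0.29 (-0.45 to -0.14), but against the untransfected knockout the ratio was 0.04 (-0.13 to 0.21). In TPM, Cemip exceeded Cemip2 3.80 times in the wild type, 10.4 times in the knockout, 6.08 times with the negative control and 19.7 times with the mimic.

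The classical hyaluronidases differed little between libraries. Hyal2 (15587, chr9:107567873-107572778), a membrane-anchored enzyme that starts the cutting of long chains, was at 39.31, 31.23, 37.62 and 35.45 TPM in the wild-type, knockout, negative-control and mimic libraries. Hyal1 (15586, chr9:107576950-107581699), the lysosomal enzyme next to it on chromosome 9, was at 17.32, 12.92, 13.36 and 12.86 TPM. Hyal1 had a knockout to wild-type log2 ratio of -0.29 (-0.51 to -0.07) and Hyal2 one of -0.16 (-0.33 to 0.01), and among the knockout libraries the 6 ratios of these genes lay between -0.07 and 0.20. Hyal1 overlaps Naa80 and Hyal3 on the same strand and its estimated counts have decimals, so reads shared among these genes make its level uncertain. Hyal2 exceeded Hyal1 between 2.27 and 2.82 times in every library.

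**Figure D3:**
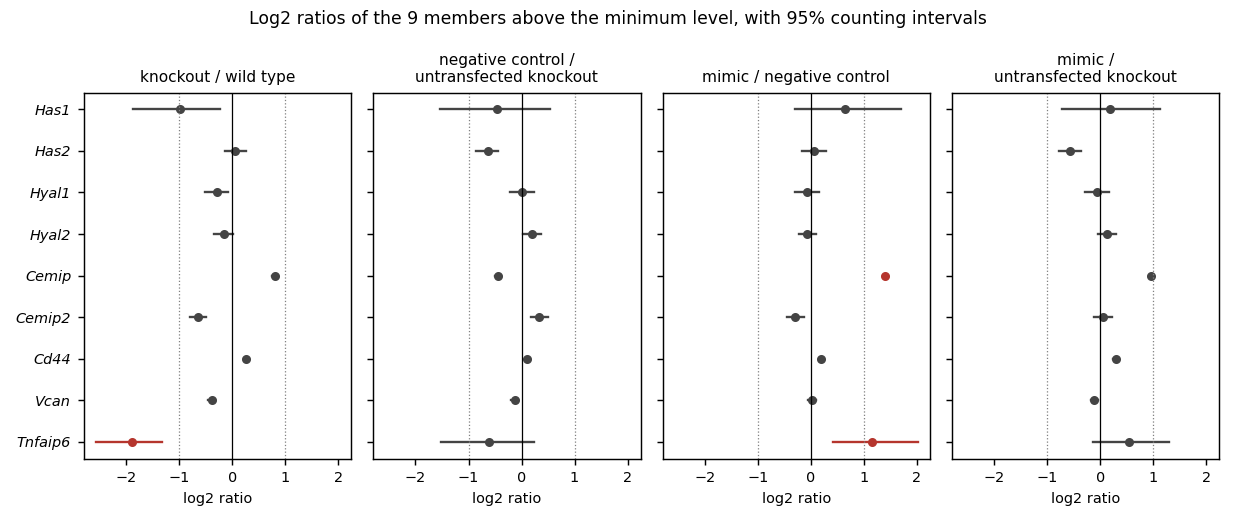
Log2 ratios of the 9 measured hyaluronan genes in 4 comparisons of single libraries, with 95% counting intervals as lines; dotted lines mark 2-fold and red marks the genes called. Tnfaip6 was called in the first comparison, at -1.89, and Cemip and Tnfaip6 in the third, at 1.40 and 1.16.

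Of the binding proteins, Cd44 was abundant and Tnfaip6 scarce. Cd44 (12505, chr2:102811141-102901669), the main surface receptor for hyaluronan, was at 144.83 TPM in the wild type, 159.07 TPM in the knockout, 175.41 TPM in negative-control cells and 201.30 TPM in mimic cells, above at least 93.3% of the genes in each library. The wild type was lowest and the mimic highest, and all differences between libraries were short of 2-fold. The log2 ratio was 0.27 (0.21 to 0.32) for knockout to wild type and 0.11 (0.06 to 0.15) for negative control to untransfected knockout. For the mimic it was 0.19 (0.14 to 0.23) to the negative control and 0.29 to the untransfected knockout. Between mimic and wild type, the widest pair, the authors' deposited log2 ratio of unscaled counts is 0.62. Vcan (13003, chr13:89655309-89743027) encodes versican, a large matrix proteoglycan that binds hyaluronan at one end. It stood at 48.76 TPM in the wild-type library and at 34.58, 32.50 and 33.45 TPM in the knockout, negative-control and mimic libraries. The wild type stood above the 3 knockout libraries, at a log2 ratio of -0.39 (-0.45 to -0.32) for knockout to wild type, and those 3 lay close to each other, with 0.02 (-0.05 to 0.09) between mimic and negative control. The TPM of Cd44 exceeded that of Vcan 2.97 times in the wild type and between 4.60 and 6.02 times in the others.

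Tnfaip6 (21930, chr2:52038113-52056681), also known as TSG-6, is induced by inflammatory signals and transfers heavy chains onto hyaluronan. It stood at 9.30 TPM in wild-type cells, with 111 counts, and at 2.23, 1.48 and 3.41 TPM in the knockout, negative-control and mimic libraries, with 29, 21 and 45 counts. The wild type was highest by a wide margin, and among the 3 knockout libraries the counting interval of the mimic, 2.49 to 4.56 TPM, overlapped that of the untransfected knockout, 1.49 to 3.20 TPM, but not that of the negative control, 0.916 to 2.26 TPM. Tnfaip6 was 3.71-fold lower in the knockout than in the wild-type library, a log2 ratio of -1.89 (-2.57 to -1.33), and 2.23-fold higher in the mimic than in the negative-control library, at 1.16 (0.42 to 2.02). The latter call rests on low counts and was lost on TPM with a pseudocount of 1. Against the untransfected knockout the mimic ratio was 0.55 (-0.14 to 1.29), and that of the negative control -0.61 (-1.51 to 0.23), neither beyond counting error. With the mimic, Tnfaip6 was still below the wild type, and the authors' deposited table gives a log2 ratio of -1.30 between these libraries. For Cemip the authors' deposited table gives 1.83 in the same comparison.

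A promoter is shown for Tnfaip6, the member called in 2 comparisons. RefSeq (GRCm38.p6) gave a window of 250 bases before its start site, and entries were found for 7 of the 10 members. GENCODE M21 places the first exon of Tnfaip6 farther upstream, so the 104 bases nearest the RefSeq start lie in that exon and are left out, and 146 bases are shown, on the plus strand at chr2:52037863-52038008. The whole window was searched on both strands for 6 motifs, and matches are in capitals, with no overlap between motifs. The core promoter element searched was TATAAA. For AP-1 the letters were TGANTCA, with N any base. For TEAD factors they were GGAATG. The E-box was searched as CACGTG. The other two were CCAAT, a common proximal element, and for the GC box GGGCGG.
Tnfaip6 promoter: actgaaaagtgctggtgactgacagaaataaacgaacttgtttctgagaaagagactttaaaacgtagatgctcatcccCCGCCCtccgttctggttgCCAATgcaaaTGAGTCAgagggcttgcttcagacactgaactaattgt
The bases shown hold TGANTCA, beginning 142 bases before the RefSeq start. It was found in 6.75% of 32851 promoters. This share and those below are for whole windows of 250 bases, longer than the 146 shown. They also hold 1 CCAAT, found in 33.8% of promoters, and 1 GC box, found in 32.7%. The bases left out hold a second CCAAT and GGAATG, which 12.6% of promoters hold. TATAAA, in 12.4% of promoters, and the E-box, in 6.02%, were not in the window. A match is a description of these letters and was not tied to a factor here.

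Other genes of the pathway were described from 46 further genes, of which 41 were in the table. Between knockout and wild type 33 were measured, 5 were called lower and 1 higher, where 7.00% of all measured genes were called lower and 5.90% higher, with a median log2 ratio of -0.08. The genes called lower were Ptx3, 3 proteases that cleave versican and Bcan. Ptx3, a pentraxin that joins Tnfaip6 and heavy chains in organizing hyaluronan, reached 437.79 TPM in the wild type and stood at 141.32, 133.90 and 106.47 TPM in the knockout, negative-control and mimic libraries. Its knockout to wild-type ratio was -1.50 (-1.57 to -1.43), so it was lower in the same comparison as Tnfaip6, but between mimic and negative control it was -0.34 (-0.43 to -0.25) where Tnfaip6 was higher. Itih2, which encodes a heavy chain, stood at 14.99 TPM in wild-type cells and between 9.83 and 10.18 TPM in the others, and Itih1 had 1 count in all.

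Of the 5 versican-cleaving proteases in the table all had a knockout to wild-type ratio below 0 and 3 were called lower, where 7.00% of all measured genes were, beside the lower fibroblast markers. Adamts1, the most abundant, had 201.05 TPM in wild-type and 80.34 TPM in knockout cells, a ratio of -1.19 (-1.25 to -1.14), and Adamts4 had 22.95 and 7.97 TPM, a ratio of -1.40 (-1.56 to -1.24). Adamts15, with 4.27 and 1.03 TPM, had the lowest ratio, -1.79 (-2.27 to -1.38), while Adamts5 at -0.92 (-0.98 to -0.87) and Adamts9, the least abundant, at -0.68 (-1.08 to -0.31) lay short of the limit. Versican itself, at -0.39, was lower by less than each of these 5 proteases, but the interval of Adamts9 takes in that value. Between mimic and negative control 0 of these 5 genes were called, where 0.855% of all measured genes were called higher and 0.352% lower. Adamts1 stood at 0.44 (0.38 to 0.51) there.

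Of 8 genes that supply the sugar nucleotides 0 were called in any of the 4 comparisons, and the knockout to wild-type median was -0.06. By comparison and direction, between 0.263% and 7.00% of all measured genes were called, so few calls among 8 genes say little. Below 2-fold, the paralogues of the first enzyme of the hexosamine pathway had knockout to wild-type ratios of -0.51 (-0.60 to -0.43) for Gfpt1, at 33.86 against 52.75 TPM, and -0.45 (-0.66 to -0.25) for Gfpt2. Ugdh, which makes UDP-glucuronic acid, was at 114.01, 112.86, 87.04 and 134.49 TPM in the wild-type, knockout, negative-control and mimic libraries, and Pgm3, an enzyme of UDP-N-acetylglucosamine synthesis, at 26.67, 25.31, 14.61 and 26.80 TPM. Both were lowest with the negative control, so their mimic to negative-control ratios were 0.62 (0.54 to 0.70) and 0.81 (0.63 to 1.00), whereas against the untransfected knockout they were 0.21 (0.13 to 0.29) and 0.09 (-0.07 to 0.26). Gfpt2, the least abundant gene of the list, stood at 0.63 (0.43 to 0.83) and 0.50 (0.31 to 0.71) in the same order. Uap1l1, the most abundant, was at 258.10 to 311.33 TPM.

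Lysosomal exoglycosidases finish the breakdown of hyaluronan fragments, and Gusb and Hexa were higher in the knockout library by less than 2-fold. Gusb, beta-glucuronidase, had a knockout to wild-type log2 ratio of 0.66 (0.61 to 0.71). Hexa, which encodes a hexosaminidase subunit and was the most abundant gene of its list at 811.30 to 870.25 TPM, had 0.20 (0.16 to 0.23). Macrophages, rich in lysosomes, had higher markers in the same library, and their part in this difference was not tested. Between mimic and negative control Hexa had a log2 ratio of -0.10 and Gusb one of 0.04. Hyal6, the least abundant of the list, had at most 2 counts in a library.

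Among further receptors Hmmr was called higher in the knockout, at 13.08 against 5.91 TPM and a log2 ratio of 1.28 (1.04 to 1.53). Hmmr binds hyaluronan and also acts at the mitotic spindle, and it stood beside 15 of 15 mitosis genes that were higher in that comparison. Layn, a membrane receptor, was lower, at -0.68 (-0.84 to -0.54), and the Toll-like receptors Tlr2 and Tlr4 had 0.27 (0.11 to 0.43) and 0.45 (0.35 to 0.55). Stab1, a scavenger receptor and the most abundant of the list, was at 107.00 to 127.94 TPM, and Lyve1, the lymphatic vessel receptor, had 1 to 7 counts per library. Of 3 genes whose proteins tie Cd44 to the cytoskeleton 0 were called between knockout and wild type. Of all measured genes 5.90% were called higher there and 7.00% lower. Msn, moesin, was the most abundant of the 3 at 477.81 to 694.77 TPM and Ezr, ezrin, the least.

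Hyalectans other than versican were scarce, and Acan, aggrecan of cartilage, was called in 2 comparisons. It was 1 of 3 measured genes of the list called higher with the mimic against the negative control, where 0.855% of all measured genes were, and 1 of 4 called lower with the negative control against the untransfected knockout, where 0.718% were. Acan had 26 counts in the wild type, 22 in the knockout, 5 with the negative control and 24 with the mimic, so the negative-control library was low and the other 3 alike. Its log2 ratio was -2.09 (-4.06 to -0.87) for negative control to untransfected knockout, 2.15 (0.94 to 4.11) for mimic to negative control and 0.05 (-0.84 to 0.96) for mimic to untransfected knockout. The cartilage and tendon markers that were called with the mimic against the negative control stood beside it. Against the untransfected knockout 0 of 5 were called, where 0.263% of all measured genes were called higher and 0.471% lower. The 6 genes of that marker list summed to 517.96 TPM in the wild type and 97.24, 55.10 and 94.13 TPM in the knockout, negative-control and mimic libraries. Comp, which was not called with the mimic against the negative control, took 79.5% to 94.8% of these sums. Bcan, brevican, had 25 wild-type and 11 knockout counts, a ratio of -1.11 (-2.34 to -0.10). Hapln4, a link protein and the most abundant of this list, was at 4.24 to 5 TPM, and Ncan was at or under 3 counts in every library.

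**Figure D4:**
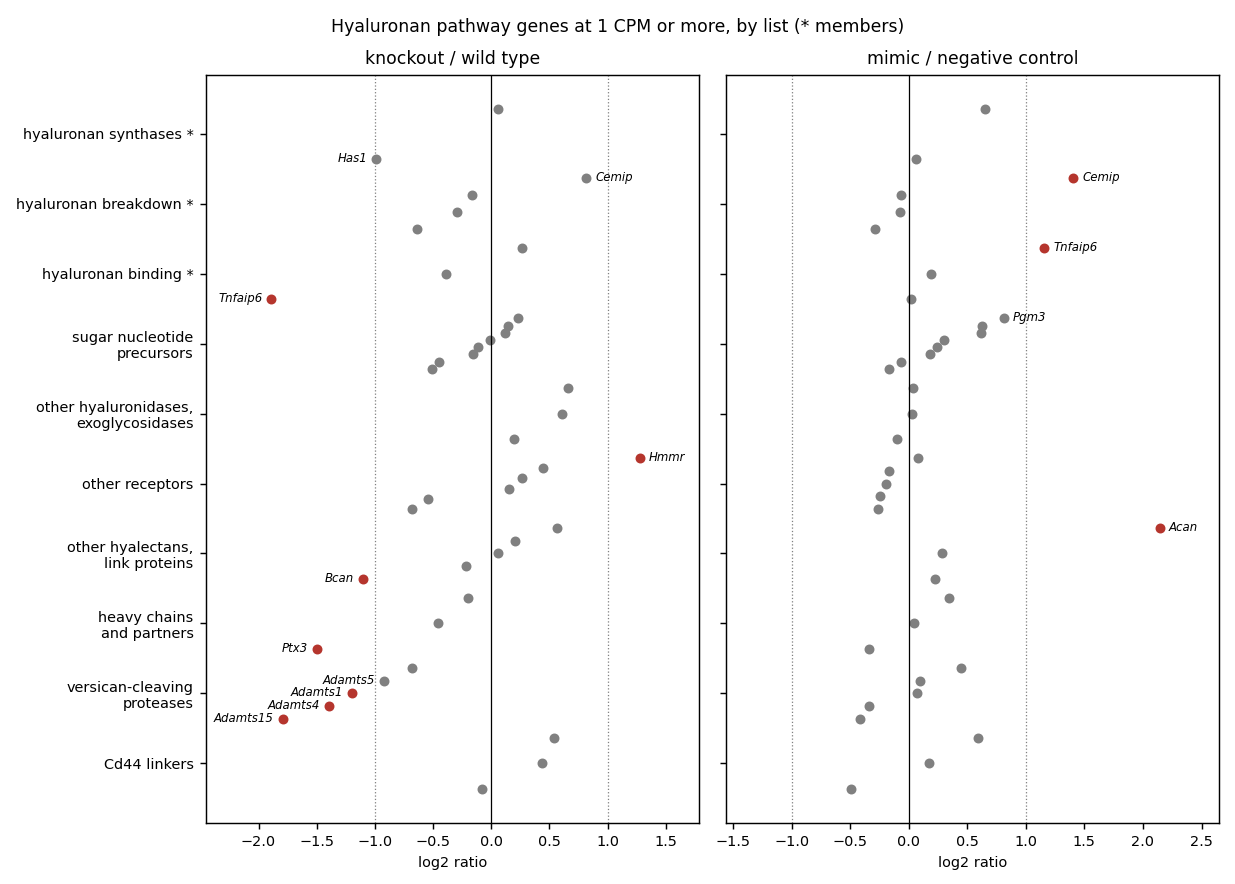
Log2 ratios of the measured hyaluronan genes by list, for knockout to wild type at left and mimic to negative control at right; each point is a gene, red points were called and dotted lines mark 2-fold. At left Tnfaip6, Adamts15, Ptx3 and Adamts4 lie lowest, and at right Acan, Cemip and Tnfaip6 lie highest.

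The genes whose pattern over the 4 libraries was most like that of a varying member were found by the distance between log2(TPM + 1) values centred on their mean, among 10704 protein-coding genes with at least 5 TPM in a library. For Cemip the nearest were Ifit1, an interferon-induced gene, at a distance of 0.415, Cavin2, a caveola protein, at 0.500 and Gvin1, an interferon-inducible GTPase of a family with near-identical copies and thus uncertain, at 0.521. Cavin2 was at 27.51, 52.39, 32.34 and 64.85 TPM in the wild-type, knockout, negative-control and mimic libraries. It was picked for its likeness to Cemip over these same libraries, so a shared order is no separate observation. For Tnfaip6 the nearest were Rflnb, a filamin-binding protein, at 0.0956, Tnmd, the tendon protein tenomodulin, at 0.183 and Bglap2, an osteocalcin gene with near-identical copies and thus uncertain, at 0.196. Rflnb was at 30.26, 9.56, 6.87 and 12.30 TPM in the same order. With 4 libraries these distances describe the libraries only.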

How the data were processed

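Estimated counts of reads, TPM and FPKM per gene were deposited by the authors, 1 column per library, with a normalized count, a signal equal to the rounded-up count divided by 1 factor per library, per the file headers and values. FastQC, HISAT and Bowtie2, with the builds GRCm38.p6 and mm10, are named in the submitters' processing notes, which assign no roles. Which tool counted reads, on which annotation and with which use of strand is not given in the sources used here. FPKM and the normalized counts were not used. The authors' table of log2 ratios and p-values (from a test the file headers call possiondis) holds unscaled count ratios, within 0.01 for all genes with at least 20 counts in both libraries; its p-values were not used.

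Groups came from the sample labels. Scaling used TMM factors from edgeR, 0.978 to 1.02, and log2 ratios used a prior of 1 count. Counts were rounded for the Clopper-Pearson and Poisson intervals, which cover counting error only, as does the floor of 3 counts, 0.155 to 0.170 CPM. Spreadsheet dates stood for 26 symbols, restored by Entrez identifier. The 3' UTRs came from GENCODE M21 (GRCm38), joined by Entrez identifier. Alternatives were DESeq2 size factors, total counts, TPM, other minimum levels, another prior and a lower fold limit.

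The members and lists were chosen with earlier results of these data known. Named genes were the 10 members, list genes called in a comparison or the most or least abundant of their list, and the 3 nearest in pattern to each member with at least 1 TPM and a 2-fold range. Other list genes named (Ugdh, Pgm3, Gfpt1, Gusb, Layn, Tlr2, Tlr4, Itih2, Adamts5) were chosen after their values were seen. One further gene is not reported here. The promoter motifs were also chosen after the data were seen. Software was Python 3.11.15 with scipy 1.17.1, pandas 2.3.3, numpy 2.4.6 and matplotlib 3.10.9, and R 4.3.3 with DESeq2 1.42.0 and edgeR 4.0.16.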

Additional observations from a re-analysis of the deposited data

How the results depend on the processing

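No called member changed sign under any of the alternatives run, and Cemip was called higher between mimic and negative control under each of them. Tnfaip6 lost that call with TPM and a pseudocount of 1, and was not measured at a minimum of 5 CPM. This leaves 1 member called in either case, where 0.2558% and 0.3988% of all measured genes were called higher. Cemip passed 2-fold between mimic and untransfected knockout on TPM with a pseudocount of 0.1. That gives 1 member, where 0.2951% of all measured genes were called higher. With a prior of 0.25 counts Has1 joined Tnfaip6 as lower in the knockout, giving 2, where 7.116% of all measured genes were called lower. At a 1.5-fold limit 1 member was higher and 3 lower in the knockout, where 11.29% and 13.19% of all measured genes were. At that limit 1 member (Has2) was lower with the negative control than in untransfected cells, where 2.705% of measured genes were. With the mimic 1 member (Cemip) was higher than in untransfected cells at that limit, where 1.125% of measured genes were. The median of the members between negative control and untransfected knockout was -0.29 with no minimum (10 members) and 0.014 at 5 CPM (7 members). Counts over all genes (higher and lower) moved more. For knockout to wild type they were 756 and 896, against 556 and 556 at 5 CPM, 418 and 657 on TPM with a pseudocount of 1, and 1445 and 1689 at 1.5-fold. For negative control to untransfected knockout they were 37 and 90, against 5 and 33, 7 and 24, 123 and 339 in the same order, and 74 and 136 with no minimum. For mimic to negative control they were 107 and 44, against 43 and 10, 32 and 10, 359 and 210, and 140 and 82. For mimic to untransfected knockout they were 33 and 59, against 3 and 9, 6 and 11, 141 and 224, and 69 and 90. No paired analysis was possible because each group has 1 library. Depth limits Has1, Has3 and Tnfaip6 among the members, with 1 to 111 counts per library, and Itih1, Hyal6, Ncan, Lyve1, Bcan and Acan among the list genes, with 0 to 26.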
